A study of Capra hircus with 6 samples.

Results

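Heterogeneous nuclear ribonucleoproteins (hnRNPs) are proteins that coat newly made RNA in the nucleus. They bind pre-mRNA through RNA recognition motifs or KH domains, and many of them favour or block the use of nearby splice sites. Some also travel to the cytoplasm, where they affect the stability and translation of mRNA. HNRNPM, HNRNPK and HNRNPD are 3 of the 5154 genes in the deposited table of YBX1 knockdown and control goat embryos. They were found by the symbols that the study's supplementary list of skipped exon events, used here in part, pairs with the identifiers of the table. By this route 456 of the 5154 genes (8.85%) have a symbol. HNRNPM is a splicing regulator that carries several RNA recognition motifs and can also bind the spliceosome. HNRNPK binds C-rich RNA and DNA through KH domains and takes part in transcription, splicing and translation. HNRNPD, also known as AUF1, binds AU-rich elements of mRNA and is best known for its role in mRNA decay.

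The embryos were made by in vitro fertilization of goat (Capra hircus) oocytes and were injected as zygotes. Control zygotes (NC, 3 libraries) received a universal negative control siRNA, and knockdown zygotes (KD, 3 libraries) received siRNA at 20 µM against YBX1, an mRNA-binding protein of the Y-box family. The concentration of the control siRNA is not given in the sources used here. Embryos were collected at the 8-cell stage, 72 h after microinjection, pooled, lysed directly and processed with Smart-seq2, which amplifies full-length cDNA from little RNA without molecular identifiers. The labels do not say that libraries of 1 group came from separate fertilizations, so p-values measure only the spread between these libraries, which may be technical. In pools of whole embryos, fewer cells of a kind and less RNA per cell cannot be told apart. No row of the table was paired with the symbol YBX1, so the targeted gene was not analysed here and the labels could not be checked by its level. The paper reports that YBX1 expression was inhibited in the knockdown embryos, from both its RNA-seq and a quantitative PCR.

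The values are FPKM. In these the fragments of a gene, with all its isoforms added up, are divided by its length and by the total of the library. Levels of different genes can be set side by side only as far as these lengths fit the transcripts present. The lengths were not checked, so an order between genes holds only for the lengths used. The fragments behind the FPKM were recovered as whole numbers, and the libraries held from 10354990 (control 1) to 12688297 fragments (knockdown library 3). Fragments amplified from the same molecule could not be recognised, so the counting errors given for each gene cover counting only. Every gene of the table had been called differentially expressed by the authors between these same libraries. That HNRNPM, HNRNPK and HNRNPD differ between the groups is therefore part of how the table was made, and their fold changes are given as a description. How the members differ from each other and vary among libraries is not fixed in this way.

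HNRNPM (ENSCHIG00000026313) had the highest FPKM of the 3 genes in the controls and the largest fall. Its level was 181, 279 and 222 FPKM in controls 1, 2 and 3, against 47.0, 83.9 and 52.1 FPKM in knockdown libraries 1, 2 and 3. The highest knockdown library, library 2, stood at 46.2% of the lowest control, so the groups were far apart. The mean was 228 ± 49.03 FPKM in the controls and 61.0 ± 19.995 FPKM after knockdown (SD, n = 3 each), which left 26.8% of the control level. On the log2(FPKM + 1) scale the change was -1.91, with a standard error of 0.40 and an adjusted p of 0.00171. The test was limma, Benjamini-Hochberg adjusted over the 4500 genes whose mean FPKM was 1 or more, as for every other adjusted p unless stated. These values rest on 4517, 8180 and 5906 fragments in the controls and on 1367, 2260 and 1590 fragments after knockdown. Counting error alone was 2.70% of the value at the lowest of these, against a spread between knockdown libraries of 32.8%.

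HNRNPK (ENSCHIG00000014738) had the lowest FPKM of the 3 in every library and also fell. That rank depends on the lengths used, 4329 bases for HNRNPK against 1347 for HNRNPD. In fragments HNRNPK was above HNRNPD in controls 1, 2 and 3 (2657, 4288 and 2910 against 2088, 4001 and 2250). It was also above HNRNPD in knockdown library 2 (1708 against 1464), but below it in knockdown libraries 1 and 3. HNRNPK had 59.3, 81.2 and 60.8 FPKM in controls 1, 2 and 3, and 13.7, 35.2 and 23.5 FPKM in knockdown libraries 1, 2 and 3. The groups did not overlap, but the knockdown libraries differed from each other by up to 2.58 times, more than in the other members. The mean was 67.1 ± 12.3 FPKM in the controls and 24.1 ± 10.8 FPKM after knockdown (SD, n = 3 each), or 35.9% of the control level. Its log2 change was -1.52, with a standard error of 0.43 and an adjusted p of 0.00672 (limma). Without knockdown library 1, the lowest, the log2 change was -1.18, and without knockdown library 2 it was -1.83, with adjusted p of 0.0369 and 0.00544 (limma). HNRNPK had 716 to 4288 fragments in a library, so that counting error was at most 3.74%.

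HNRNPD (ENSCHIG00000022317) differed least between the groups. Its level was 150, 244 and 151 FPKM in controls 1, 2 and 3, against 115, 97.0 and 113 FPKM in knockdown libraries 1, 2 and 3. The groups did not overlap, but the highest knockdown library reached 76.8% of the lowest control, and control 2 stood well above the other controls. The mean was 181 ± 53.8 FPKM in the controls and 108 ± 9.82 FPKM after knockdown (SD, n = 3 each), or 59.7% of the control level. The log2 change was -0.71, with a standard error of 0.39, a 95% interval from -1.55 to 0.14 and an adjusted p of 0.0951 (limma), so that it did not pass. Without control 2 it was -0.47, with an adjusted p of 0.217 (limma), and the lowest adjusted p with any 1 library left out was 0.0608, without control 3. HNRNPD had between 1464 and 4001 fragments in a library, so that counting error was at most 2.61%. An effect of depth on this comparison was not tested.

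**Figure D1:**
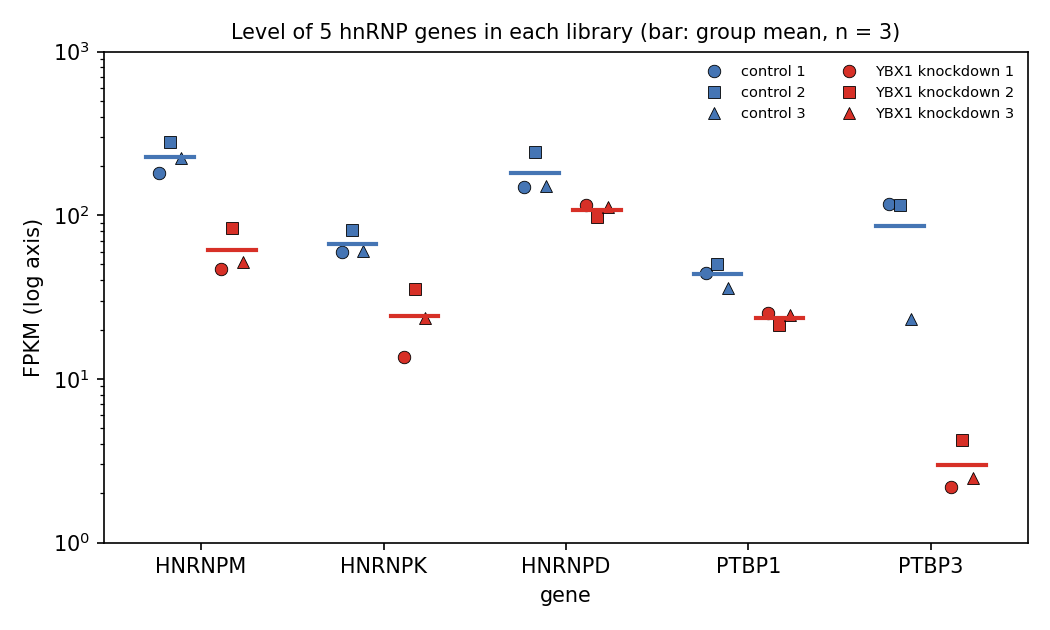
FPKM (log axis) of HNRNPM, HNRNPK, HNRNPD, PTBP1 and PTBP3 in the 3 control libraries (blue) and the 3 YBX1 knockdown libraries (red); symbols mark the replicate number and bars the group means. In the deposited FPKM the knockdown libraries of each gene lie below the controls, least in HNRNPD (108 against 181 FPKM) and most in PTBP3 (2.96 against 85.4 FPKM), while with median of ratios scaling the log2 change was 0.29 for HNRNPD and 0.12 for PTBP1. That scaling was computed from a table of mostly lower genes, so these signs do not decide the direction.

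A gene was called lower where its log2 change was below -1 at an adjusted p under 0.05 (limma). This held for 2 of the 3 members, HNRNPM and HNRNPK, where 56.2% of the 4500 genes tested were called lower, and 63.6% of the 456 with a symbol, from which all genes named here come. All 3 had every knockdown library below every control (exact permutation test, two-sided, p = 0.1 for each, the smallest that 3 against 3 allows), where 57.8% of the genes tested did. Neither count stands apart from this background. Among the tested genes with a log2 change below 0, 44.4% had a larger fall than HNRNPM, 63.2% a larger one than HNRNPK and 98.8% a larger one than HNRNPD. HNRNPM and HNRNPK thus lay in the middle of these genes, and HNRNPD among those with the smallest change. By mean level the 3 genes were all high among the genes tested: 88.5% of these were below HNRNPM, 75.8% below HNRNPK and 89.7% below HNRNPD. The table holds only genes that the authors called. These are therefore positions among called genes and not among all expressed genes.

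The size of each change depended on how the libraries were scaled to each other. Scaling to an equal FPKM sum, by the median of ratios, or by quantile normalization raised the median log2 change of the genes tested by 0.56, 0.80 and 0.72. With an equal FPKM sum the log2 change was -1.20 for HNRNPM, which was still called lower, and -0.83 for HNRNPK, which was not. With median of ratios scaling it was -0.92 for HNRNPM and -0.55 for HNRNPK, so that neither was called (adjusted p = 0.0698 and 0.284, limma). With quantile normalization it was -1.33 and -1.04, and both were called. For HNRNPD these scalings gave, in the same order, log2 changes of 0.0051, 0.29 and -0.10 (adjusted p = 0.991, 0.548 and 0.818, limma). HNRNPD was called under none of them. All these scalings were computed from called genes, most of them lower after knockdown, and so moved the genes upward as a set. A change of sign under them therefore does not decide the direction of HNRNPD.

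A factor common to a whole library cancels in the ratio of 2 genes within it, apart from the pseudocount, so the members were also compared with each other. Quantile normalization is no such factor, and with it the log2 changes of the ratios were -1.23 for HNRNPM:HNRNPD, -0.29 for HNRNPM:HNRNPK and -0.94 for HNRNPK:HNRNPD, against -1.20, -0.39 and -0.81 without it. In FPKM the order of the levels was HNRNPM, HNRNPD, HNRNPK in each of the 3 controls and HNRNPD, HNRNPM, HNRNPK in each of the 3 knockdown libraries. This order depends on the lengths by which FPKM divides. The ranges of HNRNPM and HNRNPD overlapped in the controls, so that across libraries these neighbours in the order did not differ beyond their spread, while HNRNPK lay below both. After knockdown the range of HNRNPD, from 97.0 to 115 FPKM, lay above that of HNRNPM, from 47.0 to 83.9 FPKM. Of the summed FPKM of the 3 genes, HNRNPM made up 46.5%, 46.2% and 51.2% in controls 1, 2 and 3, and 26.8%, 38.8% and 27.7% in knockdown libraries 1, 2 and 3. HNRNPD made up 38.3%, 40.3% and 34.8% in the controls and 65.4%, 44.9% and 59.9% after knockdown. The share of HNRNPK was 13.5% to 15.2% in the controls and 7.79% to 16.3% after knockdown, so its ranges overlapped.

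The ratio of HNRNPM to HNRNPD was 1.21, 1.15 and 1.47 in controls 1, 2 and 3, and 0.409, 0.865 and 0.462 in knockdown libraries 1, 2 and 3. In FPKM, HNRNPM was thus above HNRNPD in every control and below it in every knockdown library. Where a ratio stands against 1 depends on the lengths used, 2404 bases for HNRNPM and 1347 for HNRNPD. In fragments HNRNPM was below HNRNPD in knockdown libraries 1 and 3 (1367 against 1873, 1590 against 1930). It was above HNRNPD in knockdown library 2 (2260 against 1464) and in every control. The change of the ratio does not depend on the lengths, apart from the pseudocount. The log2 ratio was lower after knockdown by a change of -1.20, with a standard error of 0.49, a 95% interval from -2.24 to -0.16 and an adjusted p of 0.0420 (limma on the log2 ratio of every gene to HNRNPD, adjusted over 4499 genes). By the same fit 63.5% of the genes tested changed relative to HNRNPD, so HNRNPM was no exception in this. All these ratios share the error of HNRNPD itself. The adjustment ran over a table of called genes, so it raised the unadjusted p of 0.0261 (limma) only a little. The limma p was not adjusted over the 3 pairs of members. The exact permutation test gave p = 0.1, or 0.2 adjusted over the 3 pairs of members. The call rested on few libraries: the adjusted p (limma) was 0.0837 without control 1, 0.0822 without control 3, 0.165 without knockdown library 1 and 0.138 without knockdown library 3, with log2 changes of -1.23, -1.10, -0.995 and -1.08. Without knockdown library 2, in which the ratio was nearest to the controls, the change was -1.53.

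For the other pairs of members, no change of the ratio beyond the spread between libraries was detected. The ratio of HNRNPM to HNRNPK was 3.06, 3.44 and 3.65 in controls 1, 2 and 3, against 3.44, 2.38 and 2.22 in knockdown libraries 1, 2 and 3. Knockdown library 1 lay among the controls, and the log2 change of the ratio was -0.39, with a 95% interval from -1.64 to 0.87 and an adjusted p of 0.716 (limma), where 44.9% of the genes tested changed relative to HNRNPK. The ratio of HNRNPK to HNRNPD was 0.396, 0.333 and 0.402 in the controls, against 0.119, 0.363 and 0.208 after knockdown. Here knockdown library 2 lay among the controls, and the log2 change was -0.81, with a 95% interval from -1.91 to 0.28 and an adjusted p of 0.178 (limma). Both intervals are wide, and a p that misses the threshold does not show that the genes of either pair changed alike. Single libraries moved the change of HNRNPK:HNRNPD, which was -0.43 without knockdown library 1 and -1.20 without knockdown library 2 (adjusted p = 0.579 and 0.0892, limma). The exact permutation test gave p = 0.2 for both pairs.

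**Figure D2:**
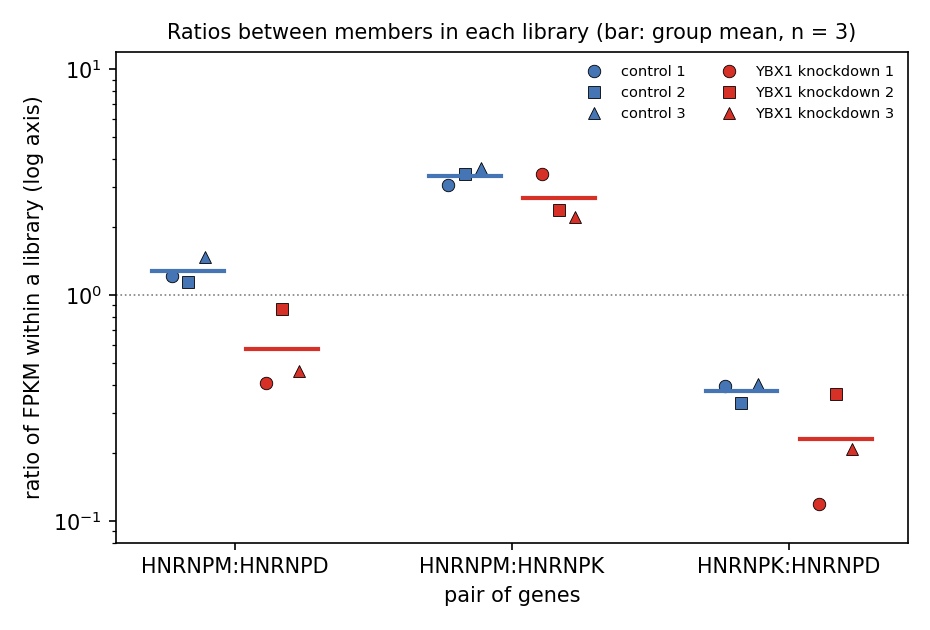
Ratio of FPKM between 2 members within each library (log axis) in controls (blue) and YBX1 knockdown libraries (red); symbols mark the replicate number, bars the group means and the dotted line a ratio of 1. The ratio HNRNPM:HNRNPD is above 1 in the 3 controls and below 1 in the 3 knockdown libraries, while the groups overlap in HNRNPM:HNRNPK and HNRNPK:HNRNPD. Where a ratio lies against 1 depends on the gene lengths in the FPKM, and in fragments HNRNPM is above HNRNPD in knockdown library 2.

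Within the groups, the libraries that were high in one member were not always high in the others. Control 2 was the highest control for all 3 members, by 0.32, 0.29 and 0.46 above the control mean on the log2 scale for HNRNPM, HNRNPK and HNRNPD. Knockdown library 2 was the highest knockdown library for HNRNPM and HNRNPK, by 0.50 and 0.62 above the mean, and the lowest for HNRNPD, by -0.15. Knockdown library 1 was the lowest for HNRNPM and HNRNPK, with deviations of -0.32 and -0.68, and the highest for HNRNPD, with 0.09. HNRNPD varied by 9.07% between knockdown libraries (SD as a share of the mean), against 32.8% for HNRNPM and 44.7% for HNRNPK, and by 29.7% between controls, against 21.5% and 18.3%.

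Of 30 other genes of the hnRNP family or related to it by name or sequence, 2 were found by symbol in the table, PTBP1 and PTBP3. The other 28 were not analysed here. PTBP1, also known as hnRNP I, binds pyrimidine-rich RNA and represses the inclusion of many exons, and PTBP3 is its paralog. PTBP1 (ENSCHIG00000018151) had 44.6, 50.3 and 36.2 FPKM in controls 1, 2 and 3, against 25.1, 21.3 and 24.4 FPKM after knockdown. The groups did not overlap, but the log2 change of -0.85 (standard error 0.37, adjusted p = 0.0455, limma) was smaller than the minimum of 1. With median of ratios scaling it was 0.12. This scaling raised the median log2 change of the genes tested by 0.80, so that sign does not decide the direction of PTBP1. PTBP3 (ENSCHIG00000013927) had 117, 116 and 23.3 FPKM in the controls and 2.19, 4.21 and 2.49 FPKM after knockdown. Control 3 was far below the other controls, and all knockdown libraries were lower still. PTBP3 fell, with a log2 change of -4.16, a standard error of 0.59 and an adjusted p of 0.000238 (limma), a value that rests on 41, 73 and 49 fragments in the knockdown libraries. Leaving out single libraries gave changes between -4.92 and -3.78, and with each of the 3 scalings it was -3.29 or lower.

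PTBP1 and PTBP3 differed in the size of their change, a pair that was compared after its values were seen. The ratio of PTBP3 to PTBP1 was 2.63, 2.30 and 0.643 in controls 1, 2 and 3, against 0.0871, 0.197 and 0.102 after knockdown. In FPKM, PTBP3 was thus above PTBP1 in controls 1 and 2, and below it in control 3 and in every knockdown library. This depends on the lengths used, 1548 bases for PTBP3 and 5070 for PTBP1. In fragments PTBP3 was below PTBP1 in every library. The log2 ratio changed by -3.31, with a 95% interval from -4.52 to -2.10 and an adjusted p of 0.000522 (limma on log2 ratios to PTBP1), where 61.6% of the genes tested changed relative to PTBP1. The exact permutation test gave p = 0.1, the smallest that 3 against 3 allows. Since the pair was chosen by its values, these p-values are a description only. Reads that 2 near-identical copies share were not counted, since only uniquely mapped reads were used, which leaves the level of genes with close copies uncertain.

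Of 27 other regulators of splicing, 6 were found by symbol, and 5 of these were called lower in the deposited FPKM (limma), with a median of -1.42 over the 6, where the median over all genes tested was -1.24 and 56.2% were called lower. SON, a large protein of nuclear speckles, had 153, 154 and 199 FPKM in the controls and 63.3, 108 and 61.3 FPKM after knockdown, a log2 change of -1.15. LUC7L, a U1 snRNP-associated protein, had 140, 76.0 and 220 FPKM in the controls and 30.2, 92.1 and 51.8 FPKM after knockdown, so its groups overlapped although its log2 change was -1.32. PSPC1, a paraspeckle protein, had a log2 change of -1.66, SFSWAP, a regulator of alternative splicing, -1.52, and YLPM1, a nuclear protein that binds protein phosphatase 1, -1.56. CCAR1, a coactivator of transcription, had 68.8, 44.0 and 23.2 FPKM in the controls and 27.0, 19.7 and 18.3 FPKM after knockdown, a log2 change of -0.92 that did not pass (adjusted p = 0.0684, limma). Single libraries decided many of these calls. LUC7L was not called without control 1 (-1.28), control 3 (-0.96), knockdown library 1 (-0.93) or knockdown library 3 (-1.31), and SON not without knockdown library 1 (-1.03) or 3 (-1.01). SFSWAP lost its call without control 1 (-1.24), and YLPM1 without control 1 (-1.17) or 2 (-1.35), while CCAR1 was called without control 3 (-1.33) and had -0.56 without control 1. With an equal FPKM sum or quantile normalization 1 of the 6 was called lower, where 1713 and 1434 of the 4500 genes were. With median of ratios scaling their log2 changes lay between -0.73 for PSPC1 and 0.044 for CCAR1, short of the minimum.

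Of 20 SR proteins and their kinases, which often act against hnRNPs at the same exons, only CLK1 was found. CLK1, a kinase that phosphorylates SR proteins, had 104, 73.8 and 43.2 FPKM in the controls against 20.03, 26.1 and 32.7 FPKM after knockdown. The groups did not overlap, and the log2 change was -1.39 with an adjusted p of 0.0103 (limma). Without control 1 it was -1.10 and the adjusted p 0.0528 (limma), and it was called under none of the 3 scalings, with log2 changes from -0.88 to -0.42. None of the 12 listed proteins of the CDC5L complex, a spliceosome module that HNRNPM is known to bind, was found by symbol, and they were not analysed here.

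Among other proteins that bind AU-rich elements or take part in mRNA decay, genes were called in both directions. Of 27 listed, 5 were found, 2 of them called lower and 2 called higher by limma, with a median log2 change of -0.90. Of all genes tested 56.2% were called lower and 34.1% higher, and of those with a symbol 63.6% and 21.3%. DCP1A, a cofactor of mRNA decapping, was not on the list and was called lower, with a log2 change of -1.72, but not with median of ratios scaling, where it had -0.74 (adjusted p = 0.112, limma). It was picked for the likeness of its pattern to HNRNPM and HNRNPK, so its fall followed from that choice. EXOSC3, a subunit of the RNA exosome, had 46.0, 122 and 219 FPKM in the controls and 8.19, 24.9 and 16.1 FPKM after knockdown, a log2 change of -2.76. DDX6, a helicase of mRNA decay and translational repression, had 18.2, 16.4 and 7.59 FPKM in the controls and 6.43, 2.86 and 3.70 FPKM after knockdown, a log2 change of -1.47. EXOSC8, another exosome subunit, rose from 316, 212 and 334 FPKM in the controls to 976, 440 and 991 FPKM in the knockdown libraries, a log2 change of 1.41. ELAVL2, an RNA-binding protein that recognises AU-rich elements as HNRNPD does, rose from 33.3, 21.1 and 28.1 FPKM to 110, 70.5 and 88.1 FPKM, a log2 change of 1.67 with an adjusted p of 0.00278 (limma). The groups of these 4 genes did not overlap. PABPC1, the cytoplasmic poly(A)-binding protein, had a log2 change of -0.90 that did not pass (adjusted p = 0.0683, limma), with overlapping groups. Without control 3 PABPC1 passed, at -1.29, without control 1 it had -0.56, and with median of ratios scaling it came to 0.089. DDX6 was called under none of the 3 scalings, with log2 changes from -0.85 to -0.59, whereas EXOSC3, EXOSC8 and ELAVL2 passed under each of them.

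The labelled cell type was checked by markers as far as symbols allowed. Of 11 oocyte markers, 3 were found, and all 3 were called higher after knockdown by limma, also under each of the 3 scalings: H1-8, the oocyte linker histone and the most abundant of them, PATL2, an RNA-binding protein of oocytes, and LHX8, an oocyte transcription factor. Of all genes tested, 1534 of 4500 (34.1%) were called higher, and 1549 under each of the 3 scalings. Of those with a symbol, 97 of 456 (21.3%) were called higher. The markers' summed level was 279, 209 and 701 FPKM in controls 1, 2 and 3, and 1042, 1448 and 952 FPKM in the knockdown libraries. Control 3 was the control nearest to the knockdown libraries in this sum, nearly all of which was H1-8, with 252, 194 and 680.5 FPKM in the controls. PATL2 had 2.93, 2.78 and 4.19 FPKM in the controls and 23.8 to 26.1 FPKM after knockdown, so that control 3 was the highest control here too but far below the knockdown libraries. LHX8 was highest in control 1 among the controls. LHX8 was not called without knockdown library 3 (log2 change 1.14, adjusted p = 0.0528, limma). The part of these oocyte transcripts in the levels of HNRNPM, HNRNPK and HNRNPD was not tested. Of 9 markers of cumulus and granulosa cells, which surround the oocyte, only TNFAIP6, a matrix protein of the expanding cumulus, was found, with 1.73, 2.38 and 20.5 FPKM in the controls and between 2.14 and 2.37 FPKM after knockdown. Control 3 was thus the single library with a raised level. None of 6 sperm markers and none of 7 markers of blastocyst lineages was found by symbol, so these were not analysed here. Without control 3 the log2 changes of HNRNPM, HNRNPK and HNRNPD were -1.91, -1.58 and -0.82.

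The genes with the most similar pattern were looked for among the 455 other tested genes with a symbol, by the Euclidean distance between log2 profiles centred on their mean over the 6 libraries. For HNRNPM these were SARS1, a cytoplasmic seryl-tRNA synthetase, SCGN, a calcium-binding protein, and DCP1A, at distances of 0.36, 0.39 and 0.49, where the median gene was at 1.69. SCGN was low, with 6.30, 7.88 and 6.91 FPKM in the controls and 0.533, 1.64 and 1.15 FPKM after knockdown, and its likeness depended on the pseudocount: with 0.1 in place of 1 its log2 change was -2.67, against -1.92 for HNRNPM. SARS1 had 217, 280 and 210 FPKM in the controls and 46.6, 103 and 50.8 FPKM after knockdown, levels close to those of HNRNPM, and as in HNRNPM control 2 and knockdown library 2 were the highest of their groups. For HNRNPK the nearest were TXNDC16, a thioredoxin domain protein, DCP1A and GMNN, an inhibitor of DNA replication licensing, at 0.41, 0.56 and 0.62. For HNRNPD they were MORF4L1, a chromatin protein, NXT2, a factor of RNA export, and DDX52, an RNA helicase, at 0.33, 0.35 and 0.38. MORF4L1 had 265, 331 and 225 FPKM in the controls and 167, 133 and 152 FPKM after knockdown, so that control 2 was highest and knockdown library 2 lowest, as in HNRNPD. DCP1A was near both HNRNPM and HNRNPK, while the neighbours of HNRNPD were shared with neither. Likeness over 6 libraries, in genes that were all called between the same groups, is a description only. DDX52 was called lower without control 3, at -1.06. With median of ratios scaling MORF4L1, NXT2 and DDX52 had log2 changes above 0. These genes were chosen for their closeness to HNRNPD, so a sign shared with it under that scaling adds nothing to their likeness. When the group means were taken out and the genes ranked by Pearson's correlation instead, 1 of the 3 neighbours of HNRNPM, 1 of HNRNPK and 0 of HNRNPD were among the nearest 3.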

How the data were processed

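Per the labels, the tools of the study were HISAT2, SAMtools, featureCounts and DESeq2. The authors trimmed reads with fastp, used the goat assembly ARS1 and kept reads with a single mapping position. They deposited FPKM values, 1 column per library. The deposited table also holds log2 fold changes and p-values of the authors' own comparison, read only to test its filter: in all 5154 genes the adjusted p was under 0.05 and the fold change was beyond 1 or -1 on the log2 scale. Members and gene lists were chosen with earlier results of these data known.

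Fragments were recovered from the steps between FPKM values (whole within 0.01 in 5153 genes). They were used for depth, for counting errors and for the order of genes before division by length. Totals were 10354990, 12192458 and 11052666 in controls 1 to 3, then 12098896, 11203666 and 12688297 in knockdown libraries 1 to 3.

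Tests used limma 3.58.1 in R 4.3.3 (lmFit, eBayes with trend) on log2(FPKM + 1), which understates changes of low genes, for the 4500 genes reaching a mean FPKM of 1, Benjamini-Hochberg adjusted. Called means an adjusted p under 0.05 and a log2 change beyond 1 or -1. Ratios were fitted as the log2 difference of every gene to 1 reference gene within each library, called at an adjusted p under 0.05. Since all genes then share the reference's error, the calls for 1 reference are right or wrong together. Both fits were tested on simulated data, where the intervals of ratios held the truth nearly as often as they should on average over reference genes, but far less often for some single reference genes. Shares of genes called relative to 1 gene are uncertain for this reason. Named were the 3 members, listed genes found by symbol, and the 3 nearest patterns of each member. Alternatives were a pseudocount of 0.1, no filter, a minimum mean FPKM of 5, 3 scalings, leaving out each library, a replicate block, eBayes with no trend, p-values without adjustment and no fold minimum. Those of PTBP3:PTBP1 and of genes other than the members were added after the data were seen. Genome positions are not given, since the annotation in hand is of another assembly version.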

Additional observations from a re-analysis of the deposited data

How the results depend on the processing

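With an equal FPKM sum the log2 change was -0.83 for HNRNPK and 0.0051 for HNRNPD. Median of ratios scaling gave -0.92 for HNRNPM, -0.55 for HNRNPK and 0.29 for HNRNPD, and 0.12, 0.044, 0.089, 0.15, 0.21 and 0.12 for PTBP1, CCAR1, PABPC1, MORF4L1, NXT2 and DDX52. Genes called lower numbered 1416 under median of ratios scaling and 1434 under quantile normalization, against 2530. Lower genes were 47.8% and 48.1% of all called, and 52.5% for an equal FPKM sum, against 62.3%. All 3 scalings were computed from this table of mostly lower genes, so a change of sign under them does not decide a gene's direction. Leaving out single libraries gave -2.16 to -1.74 for HNRNPM, -1.83 to -1.18 for HNRNPK, -0.82 to -0.47 for HNRNPD, -1.53 to -0.995 for the ratio HNRNPM:HNRNPD and -1.40 to 0.091 for TNFAIP6. For HNRNPM:HNRNPD the adjusted p (limma) ranged from 0.0268 to 0.165 over 14 alternatives and was under 0.05 in only 2 of the 6 fits without a library. Other pseudocounts, filters and scalings hardly act on a ratio within libraries and say little on its stability. The ratios HNRNPM:HNRNPK and HNRNPK:HNRNPD kept their direction and stayed above that threshold in all 14. Across the 4500 genes, the deviations of same-numbered libraries from their group means had correlations of 0.0951, 0.140 and 0.163, each higher than with any other number, a hint from the data and not from the design. With this number as a block, HNRNPM:HNRNPD had a log2 change of -1.20 and an adjusted p of 0.0634 (limma), 2542 genes were called lower and 1535 higher, and no other call of a named gene or ratio changed. The lowest count of the members was 716 fragments, and an effect of depth on them was not tested.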
